A study of Mus musculus with 30 samples.

Results

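The genes described here are Trp53, which encodes p53, its upstream locus Cdkn2a, and 8 genes that p53 binds and activates (Cdkn1a, Mdm2, Ccng1, Bbc3, Zmat3, Eda2r, Phlda3 and Sesn2). They were taken by a list of names that uses no measured value, though the list was drawn up with earlier results of these data known, and make up 10 of the 49315 genes counted. All 10 were matched by symbol and Ensembl identifier, and 9 had at least 10 reads combined over 24 libraries and could be tested.

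p53 is a transcription factor that is kept low by Mdm2, a ubiquitin ligase that p53 itself induces, so that the pair forms a feedback loop. p19Arf, one of the products of Cdkn2a, holds Mdm2 away from p53. The protein p16Ink4a comes from the same locus and inhibits the cyclin D kinases, and p21, the product of Cdkn1a, inhibits cyclin kinases further down and so lets RB family proteins and the DREAM complex silence genes of cell division. Melanomas and pancreatic cancers often lose parts of this circuit, by deletion of Cdkn2a or by changes in p53.

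Bulk RNA sequencing was done on cultured cells of 2 mouse tumor lines, B16F10, a melanoma line, and 6694c2, a line of pancreatic ductal adenocarcinoma (PDAC). Cells of each line were cultured for 24 h with vehicle, IFNγ (100 ng/mL), IFNβ (1000 U/mL) or STING agonist (225 μg/mL), with 3 libraries for each of the 8 groups. The comparison of interest to the study was how tumor cells themselves respond to these agents. The questions asked of these genes were whether they differed between the lines and whether they moved with the agents. Both lines are labelled C57BL/6, and the labels give "tumor" as tissue although the RNA came from cell cultures. According to the methods, 6694c2 cells came from mice with, among other alleles, a wild-type and a floxed p53 allele, a Pdx-driven Cre and a YFP reporter. The state of the p53 alleles in the line is not given in the sources used here, and a count over the whole gene does not separate exons that the Cre would remove. The libraries held between 15543131 and 32266795 reads on genes. The labels do not say whether the 3 libraries of a group came from separate cultures, so p-values measure only the spread between these libraries, which may be technical.

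The labels of the lines were checked against 7 melanocyte markers and 7 markers of ductal epithelium. With vehicle, the summed level of the melanocyte markers ranged from 18360 to 18540 counts per 1000000 reads (CPM) in B16F10 and from 83.9 to 87.2 CPM in 6694c2 libraries, and that of the epithelial markers from 14.7 to 20.7 and from 13880 to 14860 CPM. Of 7 markers of immune and endothelial cells, the sum did not exceed 8.44 CPM in any library, and Cd3e had no read in either vehicle group. Transcripts specific to one line were also found at a low share in libraries of the other. Over 118 genes specific to B16F10 cells, the median share of their B16F10 level was 0.574 to 0.642% in 6694c2 libraries with vehicle, 0.315 to 0.976% with IFNγ, 0.248 to 0.368% with IFNβ and 0.217 to 0.301% with STING agonist. Over 197 genes specific to 6694c2 cells, the share in B16F10 libraries was 0.176 to 0.230% with vehicle, 0.179 to 0.381% with IFNγ, 0.212 to 0.539% with IFNβ and 0.822 to 1.03% with STING agonist. These genes were under 2% of their level in the other line. With a stricter cut of 0.5% the shares were lower. In 6694c2 libraries they were 0.404 to 0.428% with vehicle and 0.120 to 0.138% with STING agonist (37 genes). In B16F10 libraries they were 0.112 to 0.195% and 0.731 to 0.955% (148 genes). For members far higher in the other line, values with the share of the 2% cut subtracted are given beside the main results.

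The promoter windows of the members, from 250 bases before to 50 bases after each start in RefSeq (GRCm38.p6), were searched for the p53 half-site, the 10-base element that p53 binds in pairs. The table held 13 windows of 9 members. Zmat3 was not matched. A half-site was found in windows of 4 members, Cdkn1a, Mdm2, Ccng1 and Trp53, where 8.36% of the 32817 promoters of that length held one. The 4 stretches are shown because 3 of the genes were lower in 6694c2 than in B16F10 cells and the fourth encodes the factor itself. The capitals mark the half-sites, and each stretch reads from 5′ to 3′ on the strand of its gene.
Cdkn1a, chr17:29090881-29090962, plus strand: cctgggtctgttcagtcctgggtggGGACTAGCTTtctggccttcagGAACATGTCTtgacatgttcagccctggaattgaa
Mdm2, chr10:117710910-117710969, minus strand: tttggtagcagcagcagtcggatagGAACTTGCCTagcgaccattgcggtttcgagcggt
Ccng1, chr11:40755437-40755496, minus strand: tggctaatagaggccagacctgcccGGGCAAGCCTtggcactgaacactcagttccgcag
Trp53, chr11:69580259-69580318, plus strand: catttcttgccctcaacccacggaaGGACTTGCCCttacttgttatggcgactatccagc

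All 4 stretches lie upstream of a start and under no gene of the counting annotation. In Cdkn1a, the half-sites began 73 and 51 bases before the upstream of its 2 annotated starts, with 12 bases between them. The search counted them as a full site, with a spacer of at most 13 bases. The 10 bases directly after the second half-site, tgacatgttc, depart from the searched letters only in their first base. They were therefore not marked, and which pair p53 binds was not tested. A full site was present in 24 of 32817 promoters, or 0.0731%. The same half-sites lie 2863 and 2841 bases before the downstream start of Cdkn1a. In Mdm2, Ccng1 and Trp53, the single half-site began 186, 185 and 75 bases before the start. Elements bound by interferon-activated factors were searched for in the same windows, on both strands. The GAS element (TTCNNNGAA) occurred in 8.29% and the ISRE core in 3.43% of all promoters, and neither occurred in a window of the members. A match is a description of letters and does not show that a factor binds there.

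With vehicle, the circuit stood at clearly different levels in the lines. Trp53 was higher in 6694c2 than in B16F10 cells, and all 8 of its targets were lower, by 1.59-fold for Bbc3 to 24.8-fold for Cdkn1a among those with reads in both lines. Cdkn2a was at or near 0 in both. Of all 21138 genes tested, 58.0% were called at an adjusted p under 0.05 (quasi-likelihood test of edgeR, adjusted by Benjamini-Hochberg), 28.7% as higher and 29.3% as lower in 6694c2 cells. Of the 9 members tested, 9 were called, 1 higher and 8 lower.

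Trp53 (ENSMUSG00000059552, chr11:69580359-69591873) was measured at 106, 106 and 93.8 CPM in the B16F10 libraries with vehicle and at 214, 201 and 195 CPM in the 6694c2 libraries. The groups did not overlap, and every 6694c2 library was above every B16F10 library. The difference was 0.996 on the log2 scale (SE 0.07, adjusted p = 4.74e-16, edgeR).

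Cdkn2a (ENSMUSG00000044303, chr4:89274471-89294653) had 9 reads over the 24 libraries, 7 in B16F10 and 2 in 6694c2 libraries. No library held more than 2, and 18 held none. A count of 0 allows up to 3 reads per library, so both lines were at or under that floor and no fold change is given. The count joins p16Ink4a and p19Arf, which share exons. The genes beside it were read from the same libraries. Cdkn2b, which encodes p15Ink4b, had a mean of 0 CPM in B16F10 and 0.0186 CPM in 6694c2 cells with vehicle, while Mtap, a gene of methionine salvage on the other side, stood at 507 ± 8.96 and 421 ± 17.3 CPM and Klhl9 at 66.3 ± 5.58 and 63.5 ± 5.61 CPM (SD, n = 3 each). Dmrta1, Ifne and Elavl2 had no read in either vehicle group. Low RNA at a locus does not show whether its DNA is present.

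Cdkn1a (ENSMUSG00000023067, chr17:29090979-29100722), which encodes the kinase inhibitor p21, had the largest difference of the members with reads in both lines. It stood at 551, 536 and 540 CPM in B16F10 and at 21.1, 22.9 and 21.6 CPM in 6694c2 libraries with vehicle. The 2 sets are an order of magnitude apart, with little spread within either. The log2 difference was -4.63 (SE 0.07, adjusted p = 3.01e-38, edgeR). At the share of B16F10 transcripts from the 2% cut, 3.27 of the 21.9 CPM in 6694c2 cells, or 15.0%, would come from B16F10 RNA. The stricter cut of 0.5% would give less. With that share subtracted the difference was -4.87.

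The regulators of p53 and of cell survival followed. Mdm2, the ubiquitin ligase of p53, stood at 187, 172 and 172 CPM in B16F10 and at 49.9, 52.96 and 47.1 CPM in 6694c2 cells, a log2 difference of -1.82 (SE 0.07, adjusted p = 9.52e-26, edgeR). Ccng1, which encodes cyclin G1, a partner of phosphatase 2A in the control of Mdm2, stood at 460, 476 and 458 CPM and at 94.2, 97.9 and 90.8 CPM, a log2 difference of -2.30 (SE 0.07). For both genes the lines were fully apart. Zmat3, an RNA-binding protein, differed by -2.51 (SE 0.08), Phlda3, which restrains Akt signalling, by -1.97 (SE 0.08), and Sesn2, a sestrin that restrains mTORC1, by -2.78 (SE 0.11). With the share of B16F10 transcripts subtracted, the differences were -1.86 for Mdm2, -2.35 for Ccng1, -2.56 for Zmat3, -2.01 for Phlda3 and -2.84 for Sesn2. Bbc3, which encodes the death factor Puma, had the smallest difference, with 8.99, 8.62 and 9.15 CPM in B16F10 against 3.97, 6.86 and 5.97 CPM in 6694c2 cells. Its 3 6694c2 libraries were the more spread, all below the B16F10 libraries, and the log2 difference was -0.67 (SE 0.16, adjusted p = 0.000319, edgeR).

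Eda2r, a receptor of the tumor necrosis factor family on the X chromosome, had 69, 104 and 105 reads in the B16F10 libraries with vehicle and none in the 3 6694c2 libraries. Against a floor of 3 reads per library, its level was at least 22.04-fold higher in B16F10 cells. Over all 12 libraries of each line it had 1224 reads in B16F10 and 11 in 6694c2 cells, where 7 libraries held none.

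Per gene length, in transcripts per 1000000 (TPM), the order of the members changed between the lines. In B16F10 cells with vehicle Cdkn1a was first at 713 ± 8.57 TPM, followed by Phlda3 at 555 ± 26.5, Ccng1 at 387 ± 13.4, Mdm2 at 102 ± 4.48 and Trp53 at 73.7 ± 5.73 TPM (SD, n = 3). In 6694c2 cells Trp53 was first at 126 ± 9.14 TPM, with Phlda3 at 121 ± 11.6 and Ccng1 at 67.1 ± 2.20 TPM. The ranges of Trp53 and Phlda3 overlapped, as did those of Mdm2 at 24.7 ± 1.17 and Cdkn1a at 24.6 ± 0.357 TPM. Cdkn1a thus had rank 5 of 10 in 6694c2 cells. Sesn2, Zmat3 and Bbc3 lay below these, between 12.3 and 35.6 TPM in B16F10 and between 3.36 and 6.56 TPM in 6694c2 cells.

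**Figure D1:**
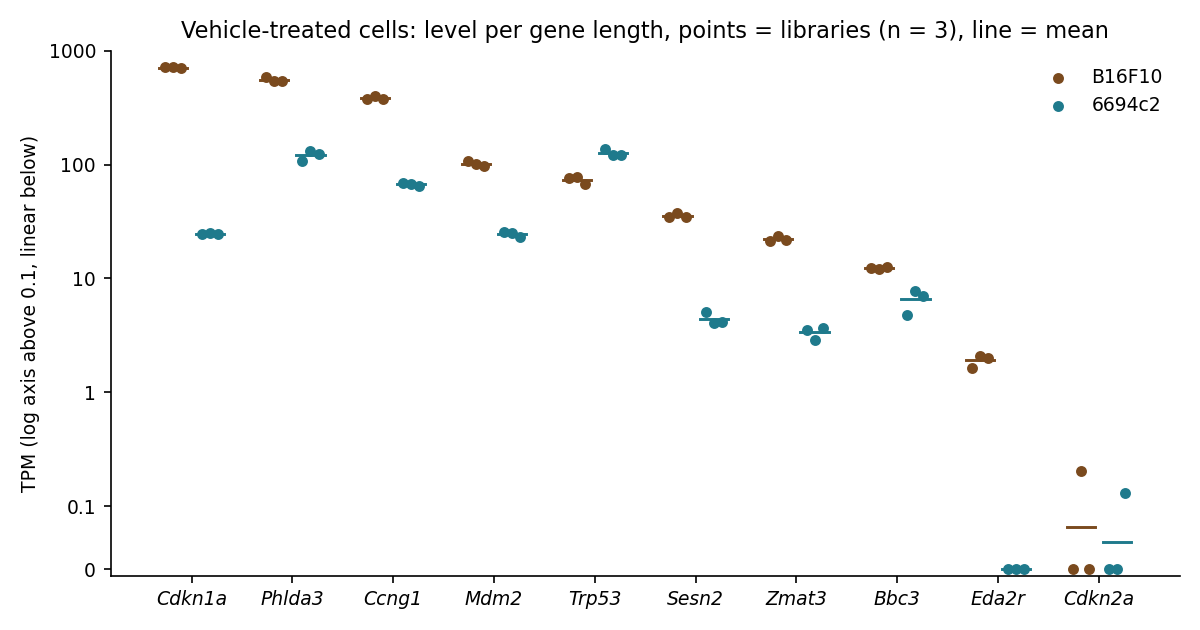
Level per gene length (TPM, log axis above 0.1) of the 10 members in B16F10 (brown) and 6694c2 (teal) cells with vehicle. Points are libraries, lines are means of 3. The 8 targets lie lower in 6694c2 cells, from 24.6 against 713 TPM for Cdkn1a to no read for Eda2r, and Trp53 lies higher.

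The lower level of the targets was not shared by the whole list of other p53 targets. Of 27 further targets, 17 were lower and 8 higher in 6694c2 cells, with a median log2 difference of -0.72 against -0.01 over all genes tested. Among the lower were Ak1 (-5.77), an adenylate kinase, Trp53inp1 (-4.52), a stress protein that assists p53, and Aen (-1.89), a nuclease of apoptosis. Perp (8.81), a desmosome protein, and Epha2 (7.74), an ephrin receptor, were higher. Over 15 alternative fits the difference ranged from 8.48 to 10.7 for Perp and from 7.56 to 8.62 for Epha2. Pmaip1, the death factor Noxa, was also called higher, with 6 reads over the 3 B16F10 and 762 over the 3 6694c2 libraries. Perp and Epha2 are also epithelial genes, and they were far apart between the lines in the same direction as the 7 epithelial markers, whose median log2 difference was 9.24. The cause of these differences was not tested. Of 22 regulators and partners of p53, 10 were higher and 5 lower, with a median of 0.18, where 28.7% of all genes were called higher and 29.3% lower. They included Kat5 (1.73), an acetyltransferase, Atr (1.48), a DNA damage kinase, and Trp53bp1 (-0.87). Mdm4, the inhibitory partner of Mdm2, differed by -0.04 (95% interval -0.24 to 0.16, adjusted p = 0.794, edgeR).

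The 19 genes of the G1 kinases, their inhibitors and RB proteins were split, with 6 higher and 8 lower, where 28.7% of all genes were called higher and 29.3% lower. Ccne1 (-3.94), Ccnd3 (-2.88) and Cdk2 (-2.71), which drive entry into S phase, were lower in 6694c2 cells, whereas Cdk6 (1.94), Ccnd1 (1.24) and Ccne2 (1.10) were higher. Of 14 genes of cell division that p21 and DREAM can silence, 8 were higher in 6694c2 cells and 3 were lower, beside the same shares of all genes. The median difference was 0.27, with Top2a (1.29) and Ccna2 (0.94) at the upper end and Plk1 (-0.43) at the lower.

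**Figure D2:**
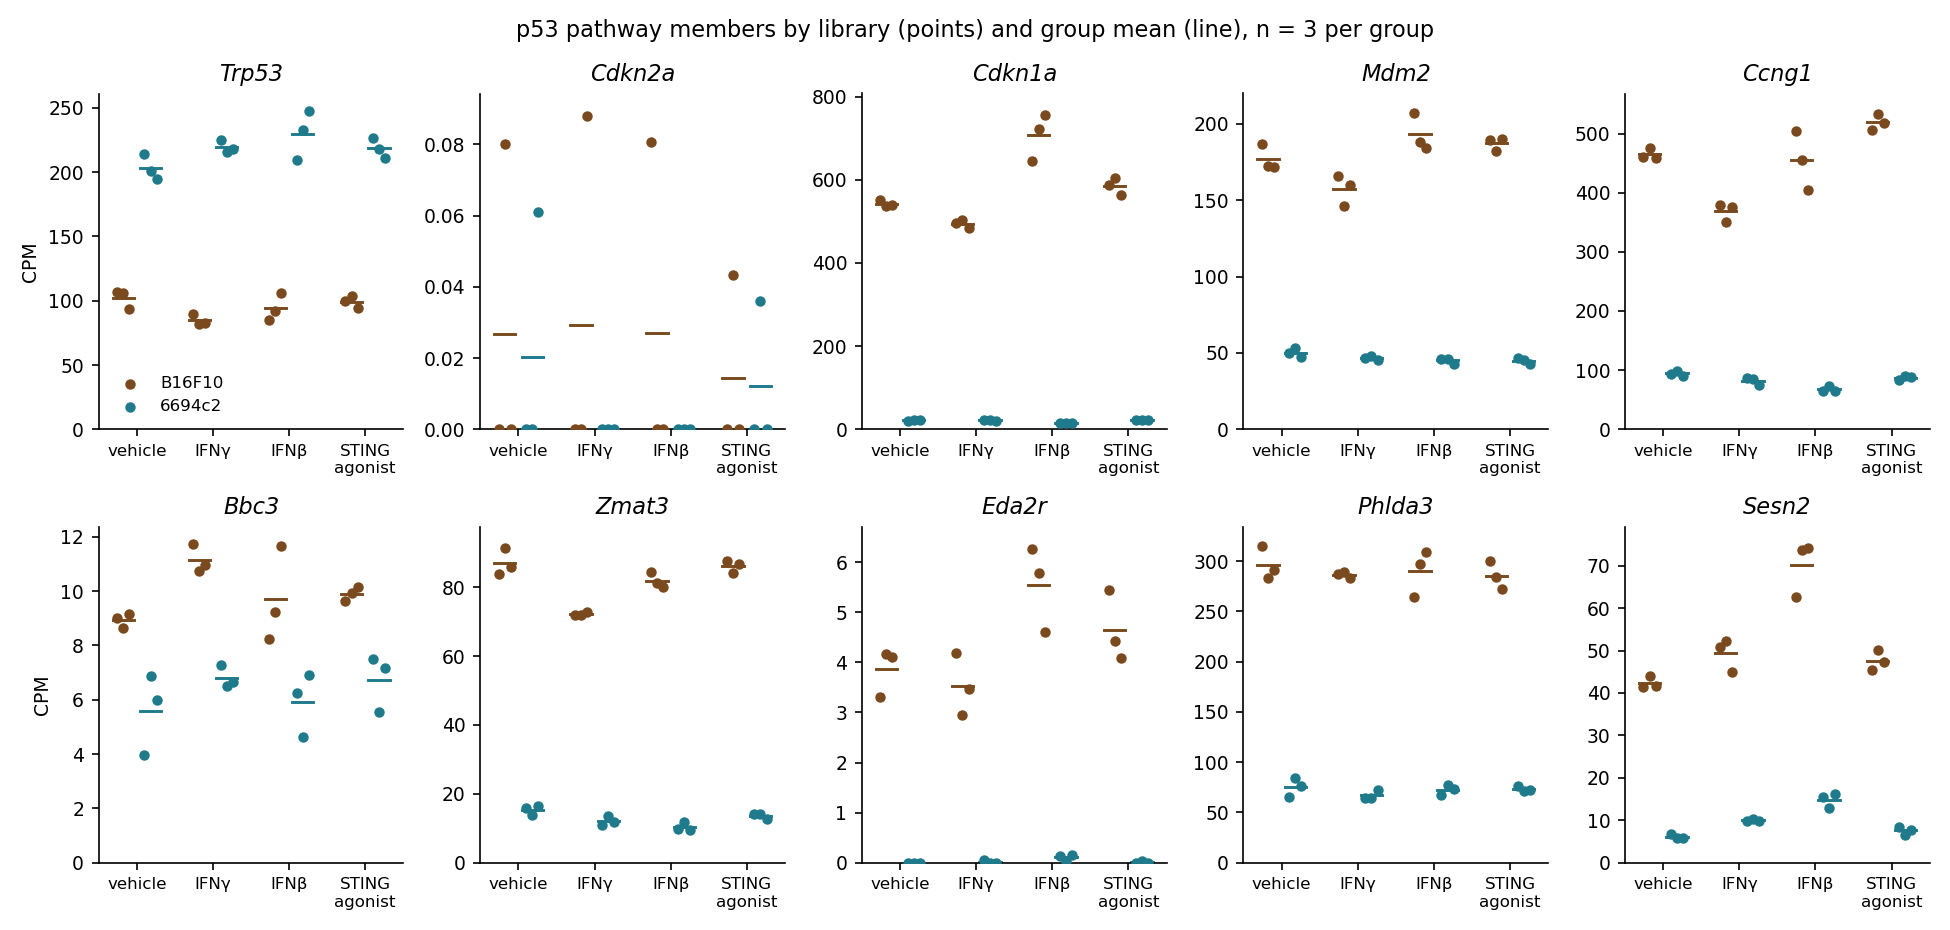
CPM of each member in every library, by agent, for B16F10 (brown) and 6694c2 (teal) cells. Lines are means of 3, and each panel has its own axis from 0. Trp53 lies higher in 6694c2 cells under all 4 conditions, the 8 targets lie lower, and Sesn2 lies above vehicle with IFNβ in both lines.

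In B16F10 cells with IFNγ, Trp53 and 4 of its targets fell and 2 targets rose, by at most 1.26-fold. The 4 that fell were Ccng1, Zmat3, Mdm2 and Cdkn1a, and the 2 that rose were Bbc3 and Sesn2. Of the 9 members tested 7 were called, 2 higher and 5 lower, where 22.8% of all genes were called and 10.8% as lower. The changes covered a small range, from -0.34 to 0.32 on the log2 scale. In the same comparison 4 of the 7 epithelial markers were called higher and 4 of the 7 melanocyte markers lower, with summed levels of 17.3 to 40.1 and of 15310 to 15630 CPM with IFNγ and no marker at 0. With the share of 6694c2 transcripts subtracted, the count of members was again 2 higher and 5 lower.

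Trp53 stood at 106, 106 and 93.8 CPM with vehicle and at 89.9, 81.9 and 82.6 CPM with IFNγ. Every IFNγ library was below every vehicle library, and the log2 change was -0.27 (SE 0.06, adjusted p = 0.000154, edgeR). Ccng1 went from 460, 476 and 458 CPM to 380, 351 and 376 CPM, a change of -0.34 (SE 0.05, adjusted p = 7.93e-09, edgeR). Zmat3 went from 83.9, 91.4 and 85.8 CPM to 71.9, 71.9 and 72.9 CPM, a change of -0.27 (SE 0.06, adjusted p = 0.000147, edgeR). For these 3 genes the groups did not overlap and the call held in every fit that left out 1 library.

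The other 4 calls with IFNγ were weaker. Mdm2 changed by -0.17 (SE 0.06, adjusted p = 0.0126, edgeR), Cdkn1a by -0.14 (SE 0.05, adjusted p = 0.0361), Sesn2 by 0.22 (SE 0.07, adjusted p = 0.0107) and Bbc3 by 0.32 (SE 0.12, adjusted p = 0.035). Groups were apart for each, with Cdkn1a at 551, 536 and 540 CPM with vehicle and 496, 502 and 485 CPM with IFNγ. Without 1 library, the calls were lost for Mdm2 (adjusted p = 0.13 without vehicle replicate 1 and 0.164 without IFNγ replicate 2), for Sesn2 (0.0613 without vehicle replicate 1, 0.0567 and 0.0963 without IFNγ replicates 1 and 2, edgeR), and for Cdkn1a and Bbc3 in 5 of 6 fits each, all but that without IFNγ replicate 2 (0.0672 to 0.123 and 0.0593 to 0.135). The Bbc3 call was also lost with DESeq2 (adjusted p = 0.0563) and without TMM scaling (0.0625, edgeR), and DESeq2 called 6 members. The number of members called by edgeR was 3 without vehicle replicate 1 and 4 without IFNγ replicate 1. Phlda3 changed by -0.05 (95% interval -0.16 to 0.05) and Eda2r by -0.13 (-0.47 to 0.22), neither called.

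In B16F10 cells with IFNβ, 3 targets rose, Sesn2, Cdkn1a and Eda2r, and none of the members fell. That is 3 of 9 tested, where 24.0% of all genes were called and 12.7% as higher. All 7 epithelial markers were also called higher, with a summed level of 19.2 to 54.1 CPM against 14.7 to 20.7 CPM with vehicle, and 5 of the 7 melanocyte markers were lower and 1 higher, with a summed level of 14680 to 15940 against 18360 to 18540 CPM. With the share of 6694c2 transcripts subtracted, 4 members were called higher, Mdm2 being added (adjusted p = 0.0456, edgeR), and 0 lower. Sesn2 stood at 41.3, 43.9 and 41.6 CPM with vehicle and at 62.6, 73.8 and 74.1 CPM with IFNβ. All IFNβ libraries were above all vehicle libraries, with the first the lowest of its group, and the change was 1.67-fold (log2 0.74, SE 0.07, adjusted p = 7.8e-22, edgeR). Cdkn1a went from 551, 536 and 540 CPM to 644, 723 and 755 CPM, a change of 1.31-fold (log2 0.39, SE 0.05, adjusted p = 3.89e-12, edgeR), also with no overlap. Eda2r, with 278 reads in the 3 vehicle libraries, rose by 0.53 (SE 0.16, adjusted p = 0.00895, edgeR), and the call was lost without vehicle replicate 1 (adjusted p = 0.0821) or IFNβ replicate 1 (0.0787).

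The remaining members were not called with IFNβ in B16F10 cells. Mdm2 changed by 0.14 (95% interval 0.03 to 0.25, adjusted p = 0.0591, edgeR), and passed without vehicle replicate 1 (adjusted p = 0.0385). Trp53 stood at 85.3, 92.0 and 106 CPM with IFNβ, which overlaps its vehicle values, and changed by -0.10 (95% interval -0.22 to 0.01, adjusted p = 0.234, edgeR). Without IFNβ replicate 3, both passed (adjusted p = 0.00941 for Mdm2 and 0.00973 for Trp53), which made 5 members called. Ccng1, Zmat3 and Phlda3 changed by -0.02, -0.08 and -0.02, with Ccng1 spread from 405 to 505 CPM among the IFNβ libraries, and Bbc3 by 0.13.

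IFNγ and IFNβ were also set against each other, and in B16F10 cells 6 members were lower with IFNγ than with IFNβ, where 14.5% of all genes were called and 6.65% as lower. These were Eda2r (-0.65), Cdkn1a (-0.53), Sesn2 (-0.52), Ccng1 (-0.31), Mdm2 (-0.31) and Zmat3 (-0.19). Cdkn1a had an SE of 0.05 and an adjusted p of 1.85e-20 (edgeR), with all IFNγ libraries under all IFNβ libraries. The Zmat3 call (adjusted p = 0.0212, edgeR) was lost in 5 of 6 fits without 1 library, with adjusted p between 0.0503 and 0.101, and held without IFNβ replicate 3. Trp53 differed by -0.16 (95% interval -0.28 to -0.04, adjusted p = 0.0549, edgeR), and passed without IFNγ replicate 1 (adjusted p = 0.0421) or IFNβ replicate 1 (0.00467).

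In 6694c2 cells with IFNγ, Sesn2 rose and no other member was called. This is 1 of 9 members where 13.5% of all genes were called and 7.89% as higher, a share near the background. Sesn2 stood at 6.89, 5.86 and 5.73 CPM with vehicle and at 9.89, 10.4 and 9.73 CPM with IFNγ, with no overlap. The change was 1.64-fold (log2 0.71, SE 0.13, adjusted p = 8.89e-05, edgeR). Zmat3 went from 15.8, 13.7 and 16.6 CPM to 10.9, 13.6 and 11.9 CPM, a change of -0.33 (95% interval -0.56 to -0.10, adjusted p = 0.0538, edgeR). It passed without vehicle replicate 2 (adjusted p = 0.0341, edgeR) or IFNγ replicate 2 (0.0263), and Phlda3, which changed by -0.15, passed without vehicle replicate 1 (0.0251), so that 2 members were called in each of these 3 fits. Cdkn1a was measured at 22.01, 23.1 and 20.7 CPM with IFNγ, a change of 0.01 (95% interval -0.17 to 0.19).

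In 6694c2 cells with IFNβ, Sesn2 and Trp53 rose and Ccng1, Zmat3 and Cdkn1a fell. Of 9 members tested 5 were called, 2 higher and 3 lower, where 18.2% of all genes were called, 10.4% as higher and 7.86% as lower. Sesn2 went from 6.89, 5.86 and 5.73 CPM to 15.4, 12.98 and 16.1 CPM. Every IFNβ library was far above every vehicle library, and the change was 2.47-fold (log2 1.30, SE 0.13, adjusted p = 5.08e-11, edgeR). Trp53 went from 214, 201 and 195 CPM to 209, 233 and 248 CPM. These ranges overlap in 1 library, and the change of 0.21 (SE 0.07, adjusted p = 0.0211, edgeR) was lost without vehicle replicate 2 or 3 (adjusted p = 0.0692 and 0.114) or IFNβ replicate 2 or 3 (0.0609 and 0.161). The Trp53 call was also lost without TMM scaling (adjusted p = 0.124) and with the groups compared alone (0.0711, edgeR).

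The 3 targets that fell did so in every library. Cdkn1a went from 21.1, 22.9 and 21.6 CPM to 15.9, 15.1 and 16.03 CPM, a change of -0.44 (SE 0.09, adjusted p = 0.000286, edgeR). Ccng1 went from 94.2, 97.9 and 90.8 CPM to 64.7, 73.0 and 65.1 CPM, a change of -0.45 (SE 0.07, adjusted p = 6.86e-06, edgeR). Zmat3 went from 15.8, 13.7 and 16.6 CPM to 9.82, 11.9 and 9.40 CPM, a change of -0.54 (SE 0.12, adjusted p = 0.000483, edgeR). All 3 calls held without each library in turn.

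The share of B16F10 transcripts moved in the same direction as these 3 genes. The summed level of the 7 melanocyte markers in 6694c2 libraries was 83.9 to 87.2 CPM with vehicle and 26.8 to 39.9 CPM with IFNβ, 6 of the 7 were called lower, and none was at 0. For Cdkn1a the share would give 3.27 of 21.9 CPM with vehicle and 1.69 of 15.7 CPM with IFNβ. With it subtracted, the changes were -0.38 for Cdkn1a (adjusted p = 0.00281, edgeR), -0.45 for Ccng1 (6.37e-06) and -0.53 for Zmat3 (0.000516), and the rise of Sesn2 was 1.34 with IFNβ and 0.73 with IFNγ. Set against IFNγ in 6694c2 cells, where 13.9% of all genes were called (6.57% as higher and 7.30% as lower), Cdkn1a was higher with IFNγ than with IFNβ by 0.46 (SE 0.09, adjusted p = 0.000205, edgeR) and Ccng1 by 0.26 (SE 0.07, adjusted p = 0.00908), and Sesn2 was lower by 0.59 (log2 difference -0.59, adjusted p = 0.000213). The Ccng1 call was lost without IFNγ replicate 1 (adjusted p = 0.0639, edgeR) or IFNβ replicate 1 (0.0506).

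Eda2r had 4, 1 and 4 reads in the 6694c2 libraries with IFNβ, 1 read over the 3 with IFNγ, 1 over the 3 with STING agonist and none with vehicle. These are at or within 1 read of the floor, and no fold change is given. Cdkn2a had no read in the 6694c2 libraries with IFNγ or IFNβ.

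With STING agonist, no member was called in either line. In B16F10 cells 0 of 9 were called by edgeR and 0 by DESeq2, with 3 at an unadjusted p under 0.05, where 3.46% of all genes were called. In 6694c2 cells 0 of 9 were called by either tool, with 1 at an unadjusted p under 0.05, where 0.360% were. The largest B16F10 change by its test was that of Ccng1, which stood at 506, 533 and 518 CPM against 460, 476 and 458 CPM with vehicle, with no overlap (log2 0.15, 95% interval 0.05 to 0.26, adjusted p = 0.0867, edgeR). Fitted on the B16F10 vehicle and STING agonist libraries alone, Ccng1 and Cdkn1a were called (adjusted p = 0.000711 and 0.0492, edgeR). Sesn2 changed by 0.16 in B16F10 (95% interval 0.02 to 0.31, adjusted p = 0.262) and by 0.31 in 6694c2 cells (0.04 to 0.57, adjusted p = 0.553, edgeR). Cdkn1a in 6694c2 cells stood at 21.4, 22.02 and 22.2 CPM, a change of 0.00 (95% interval -0.17 to 0.18). In these libraries 5 of the 7 melanocyte markers were called lower, with a summed level of 18.5 to 22.3 CPM, and with the share of B16F10 transcripts subtracted the change of Cdkn1a was 0.13 (adjusted p = 0.804, edgeR). The response to the agents was read from a list of 10 interferon-response genes. Of these, 9 rose with IFNγ, 10 with IFNβ and 9 with STING agonist in B16F10 cells. In 6694c2 cells 10, 10 and 3 rose, and 1 fell with STING agonist. There the list thus moved little with STING agonist, with a median log2 change of 0.30.

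**Figure D3:**
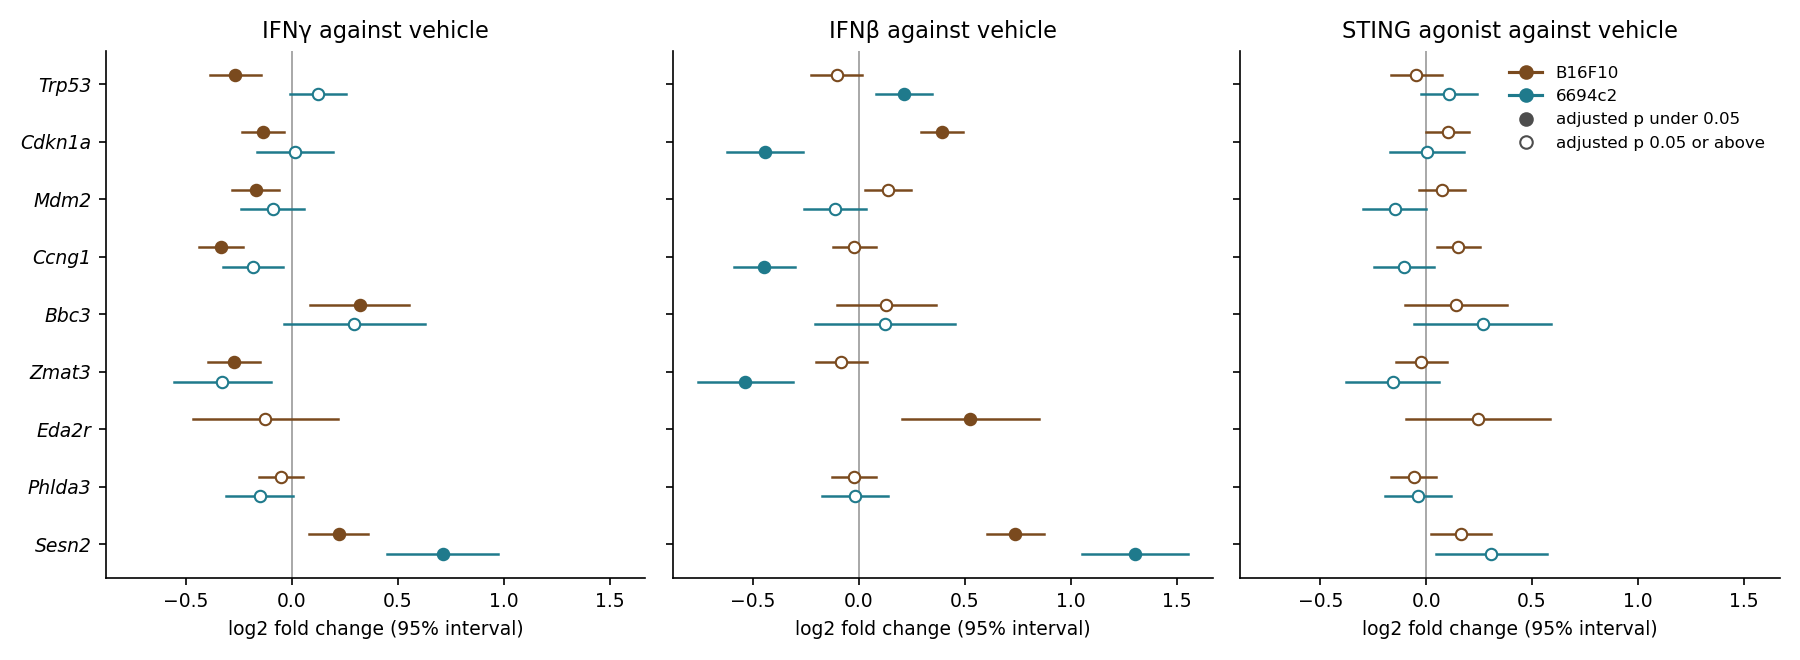
Log2 fold change against vehicle of 9 members in B16F10 (brown) and 6694c2 (teal) cells, with 95% intervals, for the 3 agents. Filled points have an adjusted p under 0.05 (edgeR). Eda2r is drawn for B16F10 cells alone, since 6694c2 cells had at most 4 reads per library. Cdkn1a with IFNβ lies at 0.39 in B16F10 and at -0.44 in 6694c2 cells, and Sesn2 lies to the right of 0 in both.

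The 3 comparisons within a line share its vehicle libraries, so their changes are not independent. The difference between the lines in each change was tested in a fit of all 24 libraries. For IFNβ, 6 members differed between the lines where 12.1% of all genes did, 2 with a higher change in 6694c2 cells (6.16% of all genes) and 4 with a lower one (5.90%). The change of Cdkn1a was lower in 6694c2 than in B16F10 cells by 0.86 on the log2 scale (difference -0.86, SE 0.09, adjusted p = 3.87e-09, edgeR), having risen in all 3 B16F10 and fallen in all 3 6694c2 libraries. It kept its call in all 21 alternative fits, with a range of -0.93 to -0.77, and was -0.80 with the share of the other line subtracted. The changes of Zmat3 (-0.48, SE 0.12, adjusted p = 0.00378) and Ccng1 (-0.45, SE 0.10, adjusted p = 0.000796, edgeR) were also lower in 6694c2 cells. The change of Sesn2 was higher there (0.54, SE 0.14, adjusted p = 0.00758, edgeR), a larger rise in the line with the lower level.

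Mdm2 (-0.28, adjusted p = 0.0399) and Trp53 (0.29, adjusted p = 0.0458, edgeR) passed narrowly. The Mdm2 call was lost in 8 of 12 fits without 1 library (adjusted p up to 0.258), those without any of the 3 B16F10 vehicle libraries, B16F10 IFNβ replicates 1 and 2, 6694c2 vehicle replicates 1 and 2, and 6694c2 IFNβ replicate 3. The Trp53 call was lost in 5 of 12 (adjusted p up to 0.145, edgeR), which were those without B16F10 IFNβ replicate 1, 6694c2 vehicle replicates 2 and 3, and 6694c2 IFNβ replicates 2 and 3. It was also lost without TMM scaling (adjusted p = 0.126), with the groups compared alone (0.11) and with the share subtracted (0.0508, edgeR). Mdm2 was also lost with the groups alone (0.102) and with no filter (0.055, edgeR). For IFNγ, 2 members differed, both higher in 6694c2 cells, where 9.47% of all genes did and 4.52% as higher, Trp53 (0.38, SE 0.10, adjusted p = 0.00917) and Sesn2 (0.47, SE 0.15, adjusted p = 0.035, edgeR). The Sesn2 call was lost in 6 of 12 fits without 1 library, those without B16F10 IFNγ replicate 3, 6694c2 vehicle replicates 2 and 3, or any of the 3 6694c2 IFNγ libraries, with adjusted p between 0.051 and 0.11 (edgeR). For STING agonist, 0 members differed by edgeR and 0 by DESeq2, with 2 at an unadjusted p under 0.05, where 2.12% of all genes did.

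The other p53 targets also moved in part. Of the 27, 6 rose and 8 fell with IFNγ and 10 rose and 2 fell with IFNβ in B16F10 cells, and 3 rose and 4 fell with IFNγ and 7 rose and 4 fell with IFNβ in 6694c2 cells. Over all genes 22.8% and 24.0% were called with IFNγ and IFNβ in B16F10 cells and 13.5% and 18.2% in 6694c2 cells. With IFNβ the medians were 0.19 in B16F10 and 0.14 in 6694c2 cells, against 0.02 and 0.00 over all genes. Trp53inp1 had the largest called rise with IFNβ in both lines, from 70.0 ± 4.80 to 129 ± 13.5 CPM in B16F10 (log2 0.89, adjusted p = 1.11e-35, edgeR) and from 3.06 ± 0.398 to 6.37 ± 1.38 CPM in 6694c2 cells (log2 1.09, adjusted p = 8.37e-06). Ddb2, a protein of nucleotide excision repair, rose by 0.71 in B16F10 cells (adjusted p = 0.0185, edgeR), with 44, 39 and 23 reads with vehicle and 66, 57 and 62 with IFNβ, and the call was lost without vehicle replicate 3 (adjusted p = 0.284), without IFNβ replicate 1 (0.0675) and with DESeq2. Pidd1 (0.66), which can activate caspases, and Gadd45a (0.53), a stress protein, also rose with IFNβ in B16F10 cells. In 6694c2 cells Ak1 (-0.80), Sesn1 (-0.65), a relative of Sesn2, and Ercc5 (-0.60) fell. Ak1 is far higher in B16F10 cells, whose share in these libraries also fell with IFNβ. Its call held in all 15 alternative fits, subtraction of that share included, with a range of -0.92 to -0.66.

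Fas, a death receptor, rose with IFNγ in both lines. It had 11, 4 and 4 reads in the B16F10 vehicle libraries and 32, 23 and 24 with IFNγ, a rise from 0.281 ± 0.212 to 1.10 ± 0.0617 CPM (SD, n = 3 each). In 6694c2 cells it had 6, 2 and 1 reads with vehicle and 176, 174 and 310 with IFNγ, or 0.174 ± 0.154 and 10.3 ± 0.481 CPM, so that a fold change against so few reads is not given. The change was larger in 6694c2 cells (interaction adjusted p = 0.000111, edgeR).

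With STING agonist 5 of the 27 other targets rose in B16F10 cells by edgeR, where DESeq2 called 3, and 0 were called in 6694c2 cells. Of all genes 3.46% were called in B16F10 and 0.360% in 6694c2 cells, so the count of 0 is near the share of all genes. The largest rises were those of Perp, from 0.287, 1.04 and 0.352 CPM to 2.81, 1.56 and 2.39 CPM (log2 1.95, adjusted p = 1.69e-05, edgeR), and Epha2, from 2.10, 2.41 and 2.35 CPM to 5.80, 4.90 and 4.72 CPM (log2 1.15, adjusted p = 2.6e-06). Both are 259 and 492 CPM in 6694c2 cells with vehicle. In the same libraries the summed level of the 7 epithelial markers was 104 to 137 CPM against 14.7 to 20.7 CPM with vehicle, 5 of 7 were called higher and none was at 0, and the share of 6694c2 transcripts was 0.822 to 1.03% against 0.176 to 0.230%. With that share subtracted, Perp changed by -0.25 (adjusted p = 1) and Epha2 by -0.72 (adjusted p = 0.423, edgeR). The other 3 were Gadd45a (0.28), Trp53inp1 (0.21) and Rps27l (0.18), and the calls of Gadd45a and Trp53inp1 were lost in 5 and 4 of 6 fits without 1 library. In 6694c2 cells 4 of the 27 had an unadjusted p under 0.05 and DESeq2 called 0.

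Of the 22 regulators and partners of p53, 8 rose and 4 fell with IFNγ and 5 rose and 5 fell with IFNβ in B16F10 cells, and the counts were 4 and 2, and 4 and 4, in 6694c2 cells, beside the same shares of all genes (22.8%, 24.0%, 13.5% and 18.2%). Daxx and Pml, partners in nuclear bodies, and Atm, a DNA damage kinase, rose with both interferons in both lines. The Atm calls in 6694c2 cells were lost in 2 of 15 alternative fits with IFNβ and in 1 of 15 with IFNγ. With IFNβ Daxx rose by 1.87 in B16F10 and 2.36 in 6694c2 cells and Pml by 1.65 and 1.83. Mdm4 rose in B16F10 cells by 0.30 with IFNγ and 0.34 with IFNβ (adjusted p = 0.00221 and 0.000302, edgeR), and changed by 0.19 and 0.27 in 6694c2 cells (adjusted p = 0.293 and 0.0596), a difference between the lines that was not called (adjusted p = 0.693 and 0.769). Wrap53, which lies beside Trp53, was not called against vehicle in either line, with changes between -0.05 and 0.26. Pml (0.28) was called with STING agonist in B16F10 cells and 0 regulators were called in 6694c2 cells by edgeR or DESeq2, with 1 at an unadjusted p under 0.05. With this agent 3.46% of all genes were called in B16F10 and 0.360% in 6694c2 cells.

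Most of the genes of cell division that p21 and DREAM can silence fell in B16F10 cells with both interferons. Of 14, 10 fell and 1 rose with IFNγ (median -0.25, against 0.00 over all genes), where 22.8% of all genes were called and 10.8% as lower. The 1 that rose was Top2a (0.14, adjusted p = 0.0399, edgeR), a call lost in 4 of 6 fits without 1 library. With IFNβ 12 fell and 0 rose (median -0.35, against 0.02), where 24.0% of all genes were called. The counts were the same with the share of 6694c2 transcripts subtracted. With IFNβ, Ccnb2, which encodes cyclin B2, went from 110, 111 and 113 CPM to 49.2, 50.7 and 55.8 CPM (log2 -1.09, SE 0.06, adjusted p = 4.81e-49, edgeR), and Mki67, the proliferation marker, from 238, 241 and 187 CPM to 110, 136 and 157 CPM (log2 -0.71, adjusted p = 4.81e-27). In both genes every IFNβ library was below every vehicle library. In B16F10 cells Cdkn1a itself fell slightly with IFNγ, a call lost in 5 of 6 fits without 1 library, and rose with IFNβ, as given above.

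In 6694c2 cells the same 14 genes did not fall as a list. With IFNγ 4 rose and 0 fell (median 0.06), among them Top2a (0.51) and Foxm1 (0.34), where 13.5% of all genes were called. With IFNβ 2 rose and 1 fell (median 0.03), the latter being Mki67 (-0.35), where 18.2% were called. The change differed between the lines for 8 of the 14 with IFNγ and 9 with IFNβ, all higher in 6694c2 cells, where 9.47% and 12.1% of all genes were called and 4.52% and 6.16% as higher. For Ccnb2 with IFNβ the difference was 0.90 (SE 0.08, adjusted p = 1.32e-10, edgeR). With STING agonist 2 fell in B16F10 cells, Mybl2 (-0.25) and Ccnb2 (-0.22), calls that were lost in 5 and 4 of 6 fits without 1 library. In 6694c2 cells 0 were called by edgeR or DESeq2, with 1 at an unadjusted p under 0.05. With STING agonist 3.46% of all genes were called in B16F10 and 0.360% in 6694c2 cells.

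**Figure D4:**
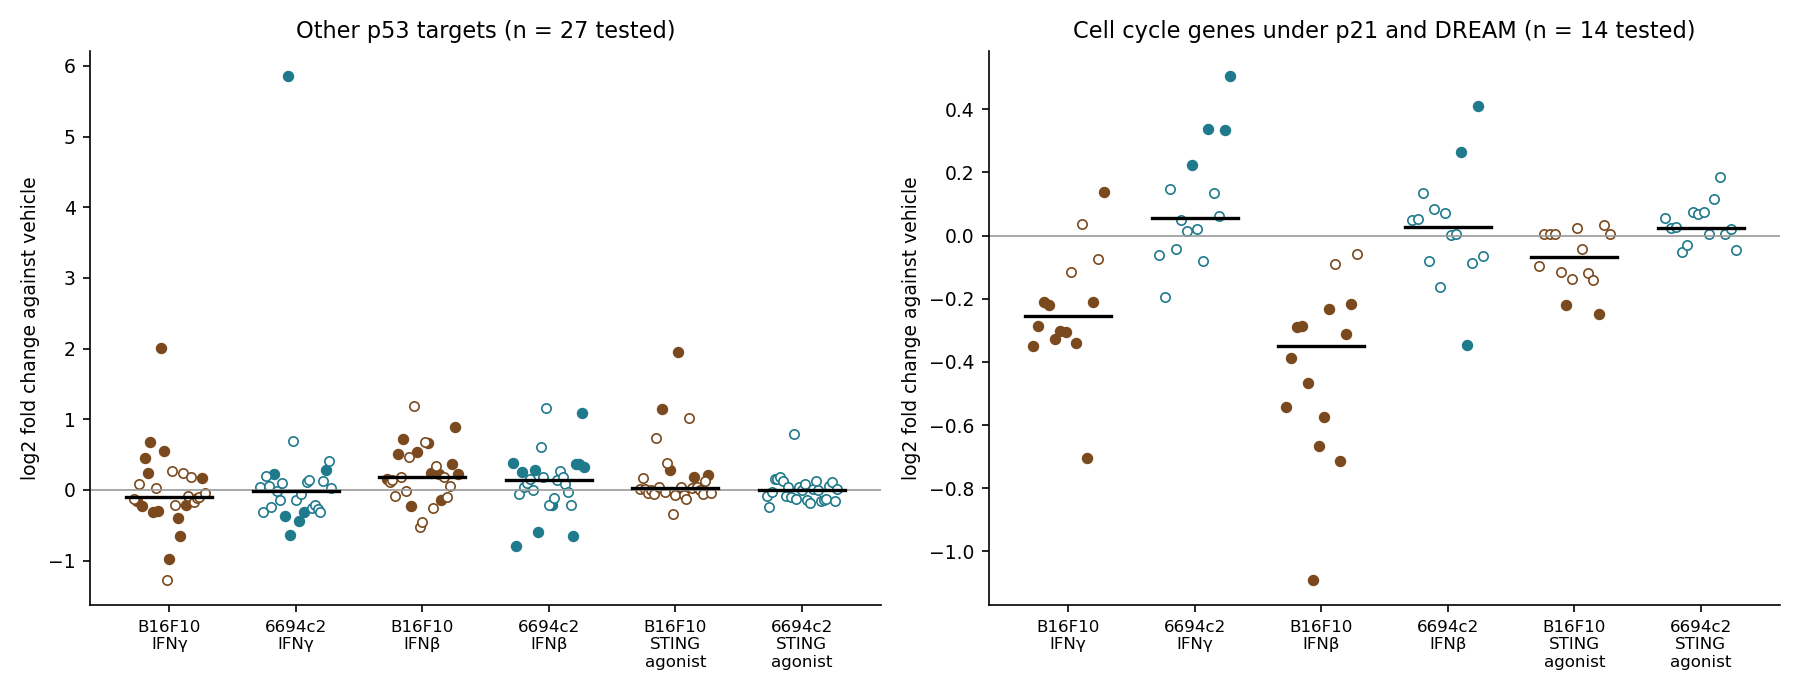
Log2 fold change against vehicle of 27 other p53 targets (left) and 14 cell division genes (right) in each line with each agent. Each point is a gene, filled where the adjusted p is under 0.05 (edgeR), and the black line is the median. The median of the cell division genes is -0.25 with IFNγ and -0.35 with IFNβ in B16F10 cells and 0.06 and 0.03 in 6694c2 cells. The point near 6 on the left is Fas in 6694c2 cells with IFNγ. Its vehicle libraries held so few reads that the size of this change is not reliable and is not given in the text.

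The G1 genes upstream of that group moved in both directions. Of 19, 5 rose and 9 fell with IFNγ and 3 rose and 6 fell with IFNβ in B16F10 cells, where 22.8% and 24.0% of all genes were called. Ccne2 (-0.90) and E2f2 (-0.69), which drive S phase entry, fell most with IFNγ, and Rb1 (0.66) and Cdkn2c (0.55), which restrain it, rose. In 6694c2 cells 6 rose and 1 fell with IFNγ, and 3 rose and 3 fell with IFNβ, where 13.5% and 18.2% were called. There Ccnd3 (0.79) and Ccnd2 (0.78) rose with IFNβ and Rb1 (-0.44) fell. With IFNβ in B16F10 cells Rb1 rose by 0.32, a call lost without IFNβ replicate 1 (adjusted p = 0.0788, edgeR). Its change with IFNβ differed between the lines by -0.78 (SE 0.13, adjusted p = 2.55e-05, edgeR). Ccnd1 (-0.31) and Ccne1 (-0.19) fell with STING agonist in B16F10 cells, the latter with a call that was lost in 6 of 6 fits without 1 library. In 6694c2 cells 0 of the 19 were called by edgeR or DESeq2, with 3 at an unadjusted p under 0.05. With STING agonist 3.46% of all genes were called in B16F10 and 0.360% in 6694c2 cells.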

How the data were processed

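Paired-end reads of 24 bulk libraries were checked by the authors with fastqc 0.11.9 and multiQC 1.5, trimmed with cutadapt 1.14, aligned with STAR 2.7.9a and counted per gene with Rsubread, on mm10 per the labels. The deposited values are raw counts per gene (49315 genes), with coordinates and lengths. The strand setting of counting is not given in the sources used here. No member shares exon bases with another counted gene. Gene coordinates are those of the files (GRCm38).

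The counts were scaled by TMM and tested with edgeR 4.0.16 (R 4.3.3, limma 3.58.1), in the quasi-likelihood test with Benjamini-Hochberg adjustment at 0.05, over 21138 genes that reached 10 reads when the 24 libraries were added up. Comparisons within a line used its 12 libraries. The lines, and the difference between them in each change, were compared in a fit of all 24. The test was checked on simulated data. Intervals are the log2 fold change ± 1.96 SE. CPM are TMM-scaled, and TPM use the length in the files. Alternatives were DESeq2 1.42.0, other scaling and filters, a robust fit, a replicate block, the groups compared alone, and each library left out. Subtraction of the other line's share, computed from genes of at least 50 CPM in one line and under 2% of that in the other, was chosen after seeing the data. The lower share from a cut of 0.5% was computed but not subtracted.

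The members were taken by name, but they and the lists were chosen with earlier results of these data known. All 10 members were named. Of the other lists at most 4 called genes per direction were named, taken from the 4 of largest change, with Mdm4, Wrap53 and the neighbours of Cdkn2a always. Rps27l was added after its values were seen, to complete a count of 5. Pmaip1 and Fas were given as reads because of their low counts. Replicate numbers are shared by groups in the labels, but same-numbered libraries deviated together, with a correlation over 0.1, in 4 of 18 pairs in B16F10 and 6 of 18 in 6694c2 cells, so they were not taken as pairs. Of the 30 samples in the labels, 6 single-cell samples were not used here.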

Additional observations from a re-analysis of the deposited data

Results flagged for a closer look

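Of the members, 8 changes differed between the lines by a test of the difference itself (quasi-likelihood test of edgeR, adjusted by Benjamini-Hochberg over all genes, 3 libraries per group), given here as the log2 change in 6694c2 minus that in B16F10 cells. With IFNβ the difference was -0.86 for Cdkn1a, -0.48 for Zmat3, -0.45 for Ccng1 and -0.28 for Mdm2, and 0.54 for Sesn2 and 0.29 for Trp53. With IFNγ it was 0.47 for Sesn2 and 0.38 for Trp53. The calls of Mdm2 and Trp53 with IFNβ and of Sesn2 with IFNγ were lost in some alternative fits, as given above. Of the 8, Cdkn1a with IFNβ was called in opposite directions in the lines, higher in 3 of 3 B16F10 libraries and lower in 3 of 3 6694c2 libraries than any vehicle library. Sesn2 with IFNβ was called higher in both. With 3 libraries per group, no library was tested as standing apart from its group.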

How the results depend on the processing

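Of 100 results of single members with a test, 41 were called, of which 30 kept their call under every alternative run, 11 lost it under at least 1 and 0 reversed. The baseline directions held in all. The number of members called with STING agonist in B16F10 cells went from 0 to 1 without TMM, with the replicate block or with the other line's share subtracted, and to 2 with the groups compared alone. With IFNγ in 6694c2 cells it went from 1 to 3 without TMM and to 2 with the filterByExpr minimum, the replicate block, a robust fit or the share subtracted. The interaction with STING agonist went from 0 to 1 with the groups compared alone. The block changed no other count of members by over 1.5 times. Without 1 library the counts ranged from 2 to 5 (B16F10, IFNβ), 3 to 5 (B16F10, IFNγ), 1 to 2 (6694c2, IFNγ) and 1 to 2 (IFNγ interaction).

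Values that changed sign were not called. Without TMM these were, in B16F10 cells, Ccng1 (0.012) and Phlda3 (0.0089) with IFNβ and Zmat3 (0.0027) with STING agonist, and in 6694c2 cells Cdkn1a with IFNγ (-0.020). Cdkn1a with STING agonist in 6694c2 cells became -0.0053 with RLE, -0.00011 without TMM, -0.0053 with DESeq2, -0.0043 with filterByExpr and -0.00040 with the groups compared alone. Of the interactions, Bbc3 with IFNγ became 0.023 (groups alone), Cdkn1a with STING agonist 0.016 (share subtracted), and Phlda3 with STING agonist -0.0014 (RLE), -0.0063 (no TMM) and -0.0013 (DESeq2). Perp and Epha2, which were called, reversed with the share subtracted, to -0.25 and -0.72 with STING agonist in B16F10 cells and 0.42 and 0.76 in the interaction.

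Without 1 library, ranges that crossed 0 were for Bbc3 -0.018 to 0.23 (B16F10, IFNβ), -0.074 to 0.30 (6694c2, IFNβ), and -0.23 to 0.16, -0.24 to 0.13 and -0.084 to 0.29 (interactions of IFNβ, IFNγ and STING agonist). They were -0.11 to 0.058 for Ccng1 (B16F10, IFNβ), -0.020 to 0.056 and -0.023 to 0.046 for Cdkn1a (6694c2, IFNγ and STING agonist), -0.0079 to 0.046 for Mdm2 (6694c2, IFNγ against IFNβ), and -0.052 to 0.018 and -0.15 to 0.0077 for Zmat3 (B16F10 STING agonist and the IFNγ interaction). For Phlda3 they were -0.069 to 0.033 and -0.079 to 0.019 (B16F10, IFNβ and IFNγ against IFNβ), -0.11 to 0.068 and -0.13 to 0.054 (6694c2, IFNβ and STING agonist), and -0.12 to 0.068 and -0.082 to 0.099 (interactions of IFNβ and STING agonist).

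Over all genes, calls with STING agonist went from 732 to 1271 in B16F10 cells with the groups alone, and to 437, 477 and 415 without vehicle replicates 1 and 2 and STING agonist replicate 3. They went from 76 to between 42 (without STING agonist replicate 1) and 155 (no filter) in 6694c2 cells, and from 449 to 743 (DESeq2), 793 (groups alone) and 168 (share subtracted) in the interaction. Without TMM the median of all genes was -0.19 at baseline and -0.10 in the IFNβ interaction, and the share of calls that were higher went from 55.7 to 70.8% (B16F10, STING agonist), 56.8 to 42.3% (6694c2, IFNβ), 54.1 to 35.3% (B16F10, IFNγ against IFNβ) and 51.1 to 35.2% (IFNβ interaction). The causes were not tested. Cdkn2a, and Eda2r in 6694c2 cells, had counts near the floor. The floor covers counting error only, while the intervals also hold the spread between libraries.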
